A study of Mus musculus with 6 samples.

Results

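The receptor chains of the common gamma chain cytokine family were followed in mouse B cells stimulated through IL-4, with and without bryostatin 1. The 9 genes, Il2rg, Il2ra, Il2rb, Il15ra, Il4ra, Il13ra1, Il7r, Il9r and Il21r, were taken by name from a table of 46316 gene symbols, and all 9 were among the 13863 genes with enough counts to be tested. The lowest count of any of them in any sample was 15, so none entered the test through 1 group alone.
Naive B cells were isolated from the spleens of mice whose genotype is labelled WT. The sources used here do not name the strain behind these libraries. Every culture received 500 ng/mL of an antibody to mouse CD40, which stands in for the CD40 ligand of helper T cells, and 5 ng/mL IL-4. The 3 IL-4 samples received nothing more, and the 3 IL-4 + bryostatin 1 samples also received 0.8 nM bryostatin 1, a marine macrolide that activates protein kinase C. RNA was sequenced from cells harvested after 2 days. The comparison addresses what bryostatin 1 adds to IL-4 and CD40 stimulation. The 6 samples used here all received IL-4, so the part of IL-4 itself in the level of any chain was not measured in them. The study says in general terms that samples came from independent experiments, but neither it nor the labels say whether the 3 sequenced samples of a group were separate mice or cultures. The p-values therefore cover only the variation among these samples, and that variation may be technical.
Each receptor of this family pairs the common gamma chain, encoded by Il2rg, with a chain of its own. The partner is IL-4Rα for IL-4, IL-7Rα for IL-7, IL-9Rα for IL-9, IL-21R for IL-21, and IL-2Rβ for both IL-2 and IL-15. The α chains of the IL-2 and IL-15 receptors bind cytokine without signalling much themselves, and IL-13Rα1 replaces the common gamma chain in the type II receptor for IL-4 and IL-13. The kinase JAK3 docks on the common gamma chain and JAK1 on the partner chains. IL-4 then activates mainly STAT6, IL-2, IL-7, IL-9 and IL-15 mainly STAT5, and IL-21 mainly STAT3. In B cells IL-4 directs class switching to IgE and IgG1, and IL-21 from follicular helper T cells drives expansion and plasma cell formation.

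With 1 row of counts per gene, the 6 libraries held 19959971 to 24896427 counts. Levels are given as CPM, the usual scaling of counts to a common library size. The 8 B cell markers were all measured, with a summed level of 5840 to 6105 CPM with IL-4 and 4996 to 5314 CPM with bryostatin 1. Of 12 T cell markers, 8 stayed under 10 counts in every sample, and the 3 CD3 chains together had 1 to 6 counts with IL-4 and 7 to 13 with bryostatin 1. Lck, a kinase of T cells that these cultures also carried at 35.4 to 39.1 CPM with IL-4, made up most of the T cell sum, which was 37.6 to 41.4 CPM with IL-4 and 75.2 to 85.1 CPM with bryostatin 1. The summed levels of 8 NK and innate lymphoid markers were 0.292 to 0.685 and 1.02 to 1.94 CPM, and those of 8 monocyte, macrophage and neutrophil markers were 4.48 to 7.48 and 21.5 to 24.6 CPM, with Adgre1 at 2.77 to 3.93 and 18.7 to 21.2 CPM and Ly6g at 0 in every sample. The 6 dendritic cell markers summed to 16.5 to 17.9 and 41.1 to 43.8 CPM. Zbtb46 made up most of that sum, at 13.2 to 13.5 and 36.8 to 38.0 CPM. Itgax was at 0.320 to 1.04 and 2.37 to 4.07 CPM, while Flt3 went the other way, at 2.29 to 3.42 and 1.02 to 1.42 CPM. The 5 basophil and mast cell markers summed to 0.137 to 0.710 and 0.237 to 0.462 CPM with Ms4a2 at 0, and the 4 plasma cell markers to 17.4 to 18.9 and 41.8 to 50.3 CPM. In bulk RNA, a change in the number of cells of a type and a change in RNA per cell cannot be told apart.

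The receptor chains moved in opposite directions. With bryostatin 1, Il2ra, Il2rb and Il7r rose, Il4ra, Il9r and, by a small amount, Il2rg fell, and Il15ra, Il13ra1 and Il21r did not pass the test, which was an adjusted p under 0.05 in edgeR's quasi-likelihood test. The 3 genes that rose stand beside 30.1% of all tested genes called higher, and the 3 that fell beside 28.0% called lower. In all, 66.7% of the chains were called against 58.1% of tested genes, so the number of calls was close to the background. The sizes were larger than the background, but the genes were chosen with earlier results of these data known. The difference in size can therefore not be read as a trait of the family. The median absolute log2 fold change was 1.67 over the 9 chains and 0.246 over all tested genes, and 5 of the 9 chains, against 10.6% of genes, moved by more than 1 on the log2 scale. Of these 5, Il2rb and Il7r rest on 15 to 23 counts in the IL-4 samples. The signed median was -0.06 for the chains and 0.00 for all genes. The 3 IL-4 samples and the 3 bryostatin 1 samples did not overlap for 5 chains, 3 of them higher and 2 lower with bryostatin 1, beside 33.0% and 30.5% of all tested genes.

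**Figure D1:**
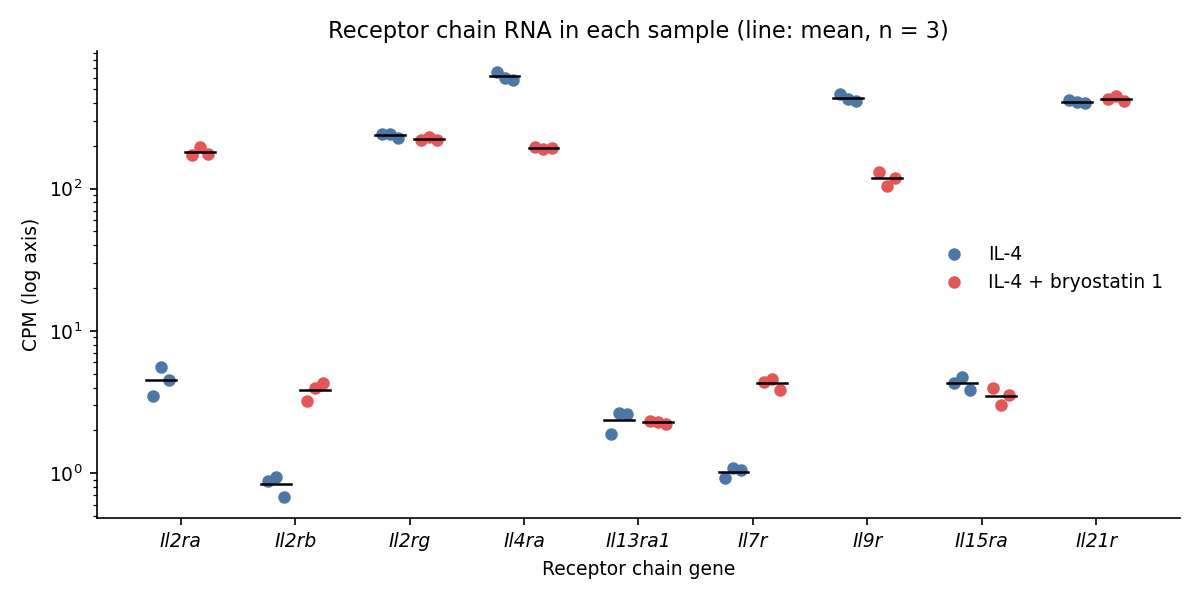
CPM of each receptor chain gene on a log axis, with 1 point per sample, 3 samples per group and a line at each mean. Il2ra moved from 4.54 to 181 CPM, Il4ra and Il9r were at 415 CPM or more in the IL-4 samples and at 196 CPM or less with bryostatin 1, and the points of Il2rg, Il21r, Il15ra and Il13ra1 overlapped between the groups.

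The shared chain Il2rg, whose loss in humans causes X-linked severe combined immunodeficiency, was abundant in every sample. It stood at 242, 243 and 228 CPM with IL-4 and at 219, 229 and 221 CPM with bryostatin 1. The third IL-4 sample lay just below the second bryostatin 1 sample, so the groups overlapped. The means were 238 ± 8.70 and 223 ± 5.19 CPM (SD, n = 3), and the log2 fold change was -0.09 (SE 0.04) with an adjusted p of 0.0396 in edgeR's quasi-likelihood test. This call did not hold under 7 of 16 alternatives. The adjusted p from edgeR was 0.117 with libraries scaled by total counts, 0.0699 without a filter on low counts, 0.0773 with the rows of a gene summed, 0.0771 without IL-4 replicate 1, 0.112 without IL-4 replicate 2, and 0.109 and 0.126 without bryostatin 1 replicates 1 and 3. Reads of Il2rg may be shared with Gm20489, an overlapping gene model on the same strand.

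Il2ra encodes IL-2Rα, or CD25, which raises the affinity of the IL-2 receptor and is known as a marker of activated T cells, regulatory T cells and some activated B cells. Its counts were 72, 118 and 99 with IL-4 and 4382, 3895 and 3811 with bryostatin 1, or 3.50, 5.59 and 4.52 CPM against 173, 195 and 176 CPM. Every bryostatin 1 sample thus lay far above every IL-4 sample. The mean went from 4.54 ± 1.04 to 181 ± 11.7 CPM (SD, n = 3), or 39.8-fold, with a log2 fold change of 5.32 (SE 0.09) and an adjusted p of 2.5e-18 in edgeR's quasi-likelihood test. Among the 13863 tested genes, 25 had a larger log2 fold change. Set against Il2ra in the bryostatin 1 samples, the CD3 chains together amounted to no more than 0.297% of its counts, and the T cell list without Lck plus the NK list to no more than 3.65%. Lck, left out of that sum, had 804, 779 and 775 counts with IL-4 and 1967, 1639 and 1545 with bryostatin 1. It was not small beside Il2ra, and the part of other cells in the Il2ra result was not tested. The log2 fold change of Il2ra lay between 5.16 and 5.48 over 16 alternatives. Because Il2ra is at the top of the family's changes, its promoter is shown, as the 250 bases before the transcription start in RefSeq on GRCm38.p6, chr2:11642542-11642791, plus strand. Capitals mark GGAATCCCC, 200 to 192 bases before the start, which reads as GGGNNTTCC, a short form of the NF-κB site, on the other strand.
Il2ra: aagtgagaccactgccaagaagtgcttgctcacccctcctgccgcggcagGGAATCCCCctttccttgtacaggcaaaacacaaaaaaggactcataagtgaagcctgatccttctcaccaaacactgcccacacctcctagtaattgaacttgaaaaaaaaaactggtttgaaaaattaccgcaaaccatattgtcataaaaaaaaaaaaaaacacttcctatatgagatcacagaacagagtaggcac

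Il2rb encodes the signalling chain shared by the IL-2 and IL-15 receptors. It was scarce throughout, with counts of 18, 20 and 15 with IL-4 and 81, 79 and 93 with bryostatin 1. These are 0.876, 0.947 and 0.685 CPM against 3.20, 3.95 and 4.30 CPM, with no overlap. The mean rose 4.53-fold, from 0.836 ± 0.135 to 3.82 ± 0.562 CPM (SD, n = 3), with a log2 fold change of 2.18 (SE 0.21) and an adjusted p of 6.2e-08 in edgeR's quasi-likelihood test. At so low a level, markers of other lymphocytes were not small beside it. The 11 T cell markers other than Lck summed to 43 to 48 counts with IL-4 and to 111, 63 and 82 counts with bryostatin 1, or 79.7% to 137% of the Il2rb count, and the CD3 chains to 8.86% to 16.05%. With the NK list added to those T cell markers, the sum was 112% to 198% of the Il2rb count with bryostatin 1. The part of such cells in the Il2rb result was not tested.
Il15ra, whose product holds IL-15 and presents it to cells that carry IL-2Rβ and the common gamma chain, did not follow either of the IL-2 receptor chains. It stood at 4.28, 4.78 and 3.84 CPM with IL-4 and at 3.95, 3.00 and 3.56 CPM with bryostatin 1, and the groups overlapped. The log2 fold change was -0.29 (SE 0.15) and was not called by edgeR's quasi-likelihood test (adjusted p = 0.111), but with the rows of the gene summed it was called lower, at -0.30 with an adjusted p of 0.0393 from edgeR. The gene has 23 rows, each with at least 52.9% of the counts of the highest. Their sum may hold the same reads many times, so that p-value may be too small. Il2ra and Il15ra lie on the same chromosome, 2, with 2 gene models and no protein-coding gene between them in the RefSeq table.

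Il4ra encodes IL-4Rα, the chain that binds the IL-4 in these cultures and carries the docking sites for STAT6. It was at 660, 603 and 579 CPM with IL-4 and at 196, 189 and 193 CPM with bryostatin 1. The highest bryostatin 1 sample was far below the lowest IL-4 sample, and the bryostatin 1 samples lay close together. The mean went from 614 ± 41.6 to 193 ± 3.64 CPM (SD, n = 3), or 3.18-fold lower. The log2 fold change was -1.67 (SE 0.04), with an adjusted p of 1.8e-15 in edgeR's quasi-likelihood test, and 236 genes had a lower value. Il4ra overlaps the exons of Gm44876 on the opposite strand, and no source used here gives the strand setting of the counting, so reads of the pair may be mixed.
The promoter of Il4ra, which fell where Il2ra rose, is shown for comparison, at chr7:125552021-125552270 of GRCm38.p6, plus strand, from RefSeq. Capitals mark the octamer ATGCAAAT, 139 to 132 bases before the start, the site read by POU factors such as OCT2.
Il4ra: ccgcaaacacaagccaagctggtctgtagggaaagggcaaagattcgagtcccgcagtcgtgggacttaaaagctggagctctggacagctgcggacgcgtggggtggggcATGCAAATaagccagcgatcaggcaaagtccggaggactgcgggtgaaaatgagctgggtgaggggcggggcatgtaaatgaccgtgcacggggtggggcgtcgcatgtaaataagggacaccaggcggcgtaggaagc
Il13ra1, which forms the type II receptor with IL-4Rα, was close to the limit of these libraries, with 39, 56 and 57 counts with IL-4 and 59, 46 and 48 with bryostatin 1. In CPM it was at 2.38 ± 0.422 and 2.28 ± 0.0576 (SD, n = 3), overlapping, with a log2 fold change of -0.06 (SE 0.18) and an adjusted p of 0.781 in edgeR's quasi-likelihood test. A change of the size of its SE was not detectable at this depth.

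Il7r encodes IL-7Rα, essential for early B cell development in the mouse and normally lost as B cells mature. Its counts were 19, 23 and 23 with IL-4 and 111, 92 and 83 with bryostatin 1, or 0.924, 1.09 and 1.05 CPM against 4.38, 4.60 and 3.84 CPM. All bryostatin 1 samples lay above all IL-4 samples. The mean was 4.16-fold higher, from 1.02 ± 0.0860 to 4.27 ± 0.393 CPM (SD, n = 3), and the log2 fold change was 2.06 (SE 0.18) with an adjusted p of 2.0e-08 in edgeR's quasi-likelihood test. As for Il2rb, the T cell markers without Lck, at 111, 63 and 82 counts with bryostatin 1, were of the same order, and the part of other lymphocytes was not tested. The promoter of Il7r is shown because it alone among the windows of the family held the STAT core motif, at chr15:9529877-9530126 of GRCm38.p6, minus strand, from RefSeq. Capitals mark TTCAGGGAA, 142 to 134 bases before the start.
Il7r: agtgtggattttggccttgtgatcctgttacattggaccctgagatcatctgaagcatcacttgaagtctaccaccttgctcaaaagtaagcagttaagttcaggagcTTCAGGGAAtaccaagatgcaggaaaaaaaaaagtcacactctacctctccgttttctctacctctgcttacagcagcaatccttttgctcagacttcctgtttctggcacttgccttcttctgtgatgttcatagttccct
Il9r encodes the chain that binds IL-9, a cytokine best known from mast cells and T helper cells. It was among the most abundant of the 9 with IL-4, at 460, 429 and 415 CPM, and was at 131, 105 and 119 CPM with bryostatin 1. The groups lay far apart, at 434 ± 23.0 and 118 ± 13.1 CPM (SD, n = 3), or 3.67-fold lower with bryostatin 1. The log2 fold change was -1.88 (SE 0.06), with an adjusted p of 1.7e-14 in edgeR's quasi-likelihood test, and 183 genes had a lower value. Il9r is listed in 9 transcript rows whose log2 ratios of mean CPM ran from -1.88 to -1.82, the lowest row holding 67.9% of the counts of the highest.
Il21r, the receptor chain for IL-21, lies next to Il4ra on chromosome 7 with no gene between them in the RefSeq table, but it did not fall with it. It was at 421, 407 and 396 CPM with IL-4 and at 424, 447 and 411 CPM with bryostatin 1. The groups overlapped, at 408 ± 12.6 and 427 ± 18.4 CPM (SD, n = 3), with a log2 fold change of 0.07 (SE 0.04) and an adjusted p of 0.154 in edgeR's quasi-likelihood test. With libraries scaled by total counts it was called higher, at 0.09 with an adjusted p of 0.0472 from edgeR.

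**Figure D2:**
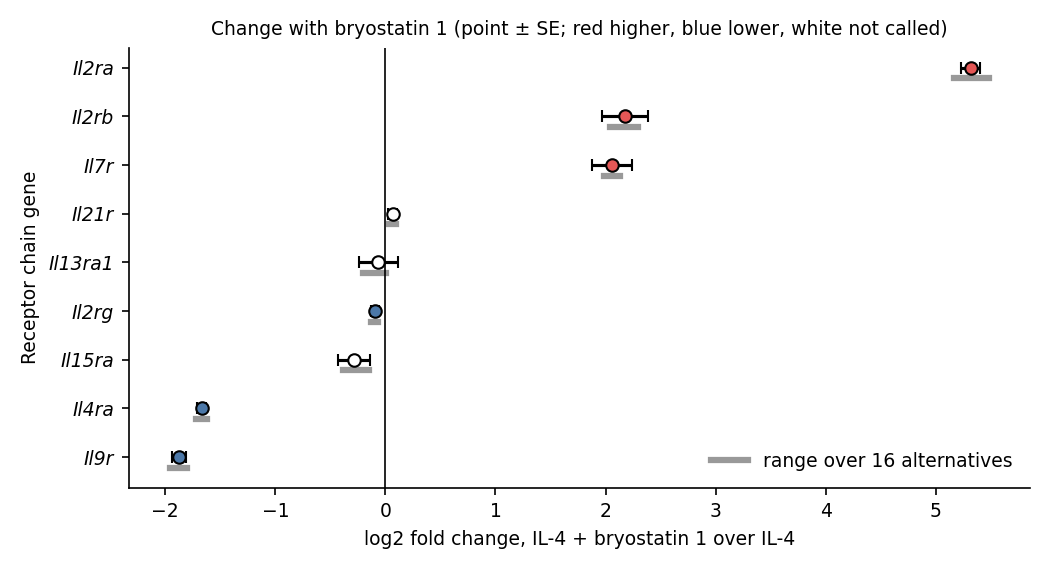
Log2 fold change of each receptor chain, IL-4 + bryostatin 1 over IL-4, with the SE as bars. Il2ra stands apart at 5.32, Il2rb and Il7r near 2, Il4ra and Il9r below -1.6, and the other 4 chains lie within 0.3 of 0.

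The windows of 250 bases before the start were searched on both strands for 5 motifs in the 9 windows of 8 members, with none for Il2rb. The STAT core TTCNNNGAA was found in 7.02% of 32851 RefSeq promoters and in the Il7r window alone of the family. The same half-sites TTC and GAA with 4 bases between them, the spacing that STAT6 prefers, was found in 5.85% of promoters and in no window of the family. GGGNNTTCC was found in 4.98% of promoters and in the windows of Il2ra and Il13ra1, the AP-1 motif TGANTCA in 6.75% and in 1 window of Il15ra, and ATGCAAAT in 1.60% and in that of Il4ra. The Il9r window held none of the 5. A match describes letters in the reference only.

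Because read counts grow with transcript length, the chains were ranked by CPM per kb of transcript. Here the counts were those of a curated RefSeq transcript. The length was that of the GENCODE M21 transcript linked to it, which may differ from the length of the RefSeq transcript. For Il9r, Il2rb, Il7r, Il15ra and Il4ra the curated row is another than the one behind the CPM above, and for Il9r it holds 67.9% of the counts. With IL-4, Il9r (166 ± 8.38 CPM per kb) and Il21r (163 ± 5.03) led and overlapped, followed by Il2rg (142 ± 5.21) and Il4ra (117 ± 7.79), each n = 3 with SD. Far below stood Il15ra at 2.44 ± 0.324, Il2ra at 1.03 ± 0.236, Il13ra1 at 0.642 ± 0.114, Il7r at 0.288 ± 0.0243 and Il2rb at 0.162 ± 0.0306 CPM per kb (SD, n = 3), and no other neighbours in that order overlapped. With bryostatin 1 the order was Il21r, Il2rg, Il9r, Il2ra, Il4ra, Il15ra, Il7r, Il2rb and Il13ra1. Il21r was at 171 ± 7.37 and Il2rg at 134 ± 3.11, while Il9r at 47.2 ± 4.20 and Il2ra at 41.1 ± 2.65 CPM per kb overlapped, as did Il2rb and Il13ra1 (SD, n = 3). Il2ra moved from rank 6 to rank 4, above Il4ra at 36.6 ± 0.676 CPM per kb (SD, n = 3). With the counts of the highest row over the same lengths, an alternative chosen after seeing the data, Il9r was at 247 ± 13.1 and 67.2 ± 7.47 CPM per kb (SD, n = 3), above Il21r with IL-4 and above Il2ra with bryostatin 1 without overlap, and Il2rb no longer overlapped Il13ra1.
The chains that pair with the common gamma chain were then added up, a step chosen after their values had been seen. Il4ra, Il9r, Il21r, Il7r and Il2rb summed to 469, 443 and 427 CPM per kb with IL-4 and to 260, 260 and 251 with bryostatin 1. Per unit of Il2rg, the sum was 3.23, 3.04 and 3.13 with IL-4 and 1.98, 1.90 and 1.90 with bryostatin 1, without overlap (p = 0.1 in a two-sided exact permutation test, which 3 against 3 cannot go below). The sum holds Il9r and Il4ra, which fell without overlap as single genes while Il2rg changed little, so this test adds nothing to them. Il21r made up 36.6% ± 0.6005 of the sum with IL-4 and 66.6% ± 2.02 with bryostatin 1 (SD, n = 3). The share of Il9r went from 37.2% ± 0.156 to 18.4% ± 1.72 and that of Il4ra from 26.1% ± 0.516 to 14.3% ± 0.387 (SD, n = 3). Il7r and Il2rb stayed below 0.5% in every sample. With the highest rows, Il9r held 46.8% ± 0.173 and 24.2% ± 2.46 and Il21r 31.0% ± 0.572 and 61.8% ± 2.57 of the sum (SD, n = 3).

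**Figure D3:**
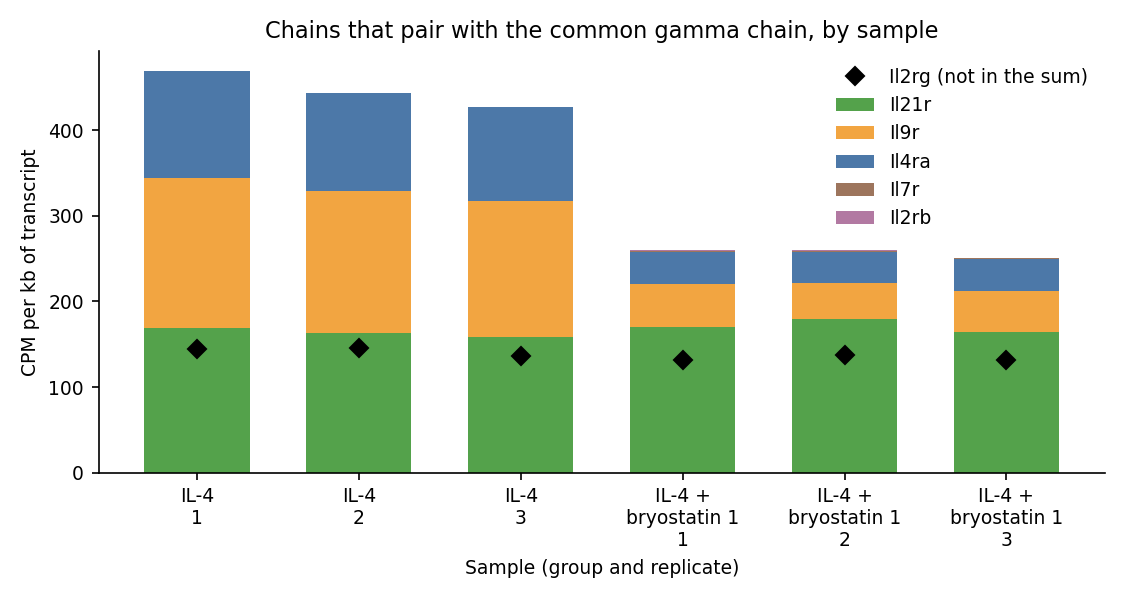
CPM per kb of the 5 chains that pair with the common gamma chain, stacked for each of the 6 samples. The stacks stand at 427 to 469 with IL-4 and 251 to 260 with bryostatin 1, where Il21r fills most of each stack.

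Ratios of chains within a sample do not depend on library scaling. They are ratios of counts, uncorrected for length, so only their change is read. The ratio of Il4ra to Il2rg, the chains of the type I IL-4 receptor, was 2.72, 2.48 and 2.54 with IL-4 and 0.896, 0.826 and 0.873 with bryostatin 1, a difference of -1.58 in mean log2 ratio with no overlap. The ratio of Il4ra to its neighbour Il21r went from 1.57, 1.48 and 1.46 to 0.463, 0.423 and 0.469. The ratio of Il4ra to Il13ra1, the type II pair, went from 348, 227 and 222 to 84.3, 82.2 and 86.9, with the wide IL-4 values resting on the few counts of Il13ra1.
Among the IL-2 and IL-15 receptor chains, the ratio of Il2ra to Il2rb was 4, 5.9 and 6.6 with IL-4 and 54.1, 49.3 and 41.0 with bryostatin 1. Il2rb to Il2rg went from 0.00361, 0.00389 and 0.00301 to 0.0146, 0.0173 and 0.0195. Il15ra to Il2rb went from 4.89, 5.05 and 5.6 to 1.23, 0.759 and 0.828, and Il2ra to Il15ra from 0.818, 1.17 and 1.18 to 43.8, 64.9 and 49.5. Of the 8 pairs compared, 7 had groups that did not overlap, each with p = 0.1 in a two-sided exact permutation test and 0.114 after adjustment over the 8 pairs, and 0.1 is the smallest p that 3 against 3 can give. Each of these 7 pairs holds Il4ra, Il2ra or Il2rb, whose groups did not overlap as single genes, as for 63.5% of all tested genes, so the count adds nothing to those genes. The exception was Il13ra1 to Il2rg, at 0.00783, 0.0109 and 0.0114 with IL-4 and 0.01063, 0.01005 and 0.01005 with bryostatin 1 (exact p = 1).

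**Figure D4:**
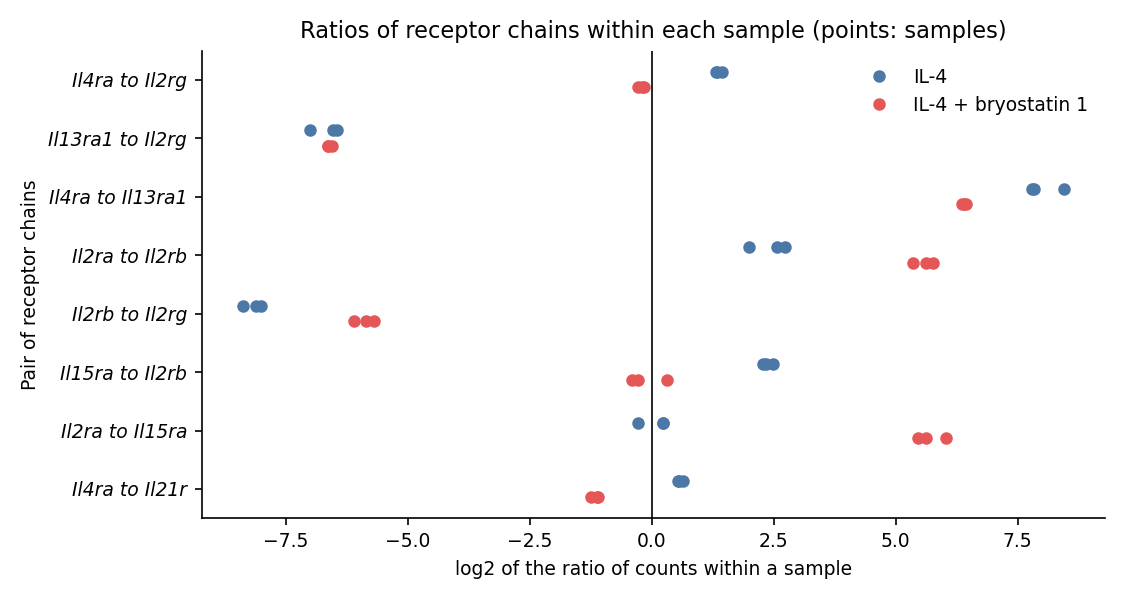
Log2 of the ratio of counts of 8 pairs of receptor chains within each sample, 1 point per sample. The groups separate for 7 pairs and overlap for Il13ra1 to Il2rg.

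The wider pathway moved in both directions as well. No ligand gene rose or fell in the test. Of 8 ligand genes, 7, among them Il2, Il4, Il9 and Il21, had at most 2 counts in any sample and could not be tested, and Il15 was at 1.69 ± 0.274 and 1.30 ± 0.278 CPM (SD, n = 3; adjusted p = 0.165 from edgeR). Of 2 related chains, Crlf2, which pairs with IL-7Rα in the TSLP receptor, fell from 32.0 ± 2.05 to 22.4 ± 1.34 CPM (SD, n = 3), and Il13ra2, a decoy receptor for IL-13, had 0 counts.
Of the 9 kinase and STAT genes, 3 rose and 4 fell, with a median log2 fold change of -0.00. Jak3, the kinase on the common gamma chain, fell from 99.8 ± 5.76 to 65.5 ± 2.42 CPM (SD, n = 3). Stat3, used by the IL-21 receptor, fell from 145 ± 1.59 to 100 ± 0.554 CPM (SD, n = 3). Stat5a, used by the IL-2, IL-7, IL-9 and IL-15 receptors, rose from 107 ± 1.66 to 246 ± 7.51 CPM (SD, n = 3). Stat6, named after its value was seen because it carries the IL-4 signal, was at 192 ± 2.46 and 192 ± 5.36 CPM (SD, n = 3) and was not called (adjusted p = 0.97 from edgeR).
Of 8 adaptors and PI3K subunits, 2 rose and 5 fell (median log2 fold change -0.17). Irs1, a docking protein for IL-4Rα, fell from 4.67 ± 0.587 to 1.61 ± 0.213 CPM, while the docking protein gene Gab2 rose from 1.02 ± 0.355 to 2.27 ± 0.714 CPM (SD, n = 3). Gab2 rests on few counts, 26, 13 and 26 with IL-4 and 38, 48 and 63 with bryostatin 1. Irs2, in the same list as Irs1, was at 8.18 ± 0.884 and 8.04 ± 1.22 CPM (SD, n = 3) and was not called (adjusted p = 0.926 from edgeR). The log2 fold changes of Sos1 and Grb2, which link receptors to RAS, were -0.57 and -0.42. Of 6 feedback inhibitors, 0 rose and 4 fell, Cish from 90.5 ± 16.04 to 55.3 ± 3.58 CPM, Socs1 from 36.0 ± 0.394 to 23.2 ± 0.579, Socs3 from 3.28 ± 0.558 to 2.14 ± 0.702 and the phosphatase gene Ptpn6 from 457 ± 9.13 to 346 ± 8.27 CPM (SD, n = 3), with a list median of -0.51. The groups of Socs3 overlapped, with 76, 74 and 58 counts with IL-4 and 46, 59 and 36 with bryostatin 1. Cish and the SOCS genes are themselves induced by STAT factors in many cells.
Of 8 tested STAT6 targets out of 9, 4 rose and 4 fell (median 0.04). Ighe, the IgE constant gene, and the MHC class II genes H2-Aa and H2-Ab1 fell, at log2 fold changes of -2.28, -1.20 and -1.38, and the chemokine gene Ccl22 rose, at 1.63. Ighe and the H2 genes may share reads with close relatives. Of 10 STAT5 targets, 7 rose and 1 fell (median 0.30, against 0.00 for all tested genes). Bcl2 fell, at a log2 fold change of -0.26, and Pim1 and Osm were not called. The list leaves out Cish and the SOCS genes, which were counted above with the feedback inhibitors. Of these, Cish, Socs1 and Socs3 fell, and Socs2 was not called, at 89.1 ± 8.35 and 95.7 ± 5.58 CPM (SD, n = 3; adjusted p = 0.133 from edgeR). The survival gene Bcl2l1 went from 89.5 ± 2.59 to 256 ± 15.3 CPM, the cyclin gene Ccnd2 from 409 ± 7.75 to 758 ± 4.97, the kinase gene Pim2 from 25.9 ± 1.01 to 46.6 ± 3.82 and Lta, a lymphotoxin subunit gene, from 20.9 ± 0.802 to 30.8 ± 0.733 CPM (SD, n = 3). The counts of all lists come from edgeR's quasi-likelihood test and stand beside the 30.1% and 28.0% of all tested genes called higher and lower. Both target lists hold genes that other signals also control.

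**Figure D5:**
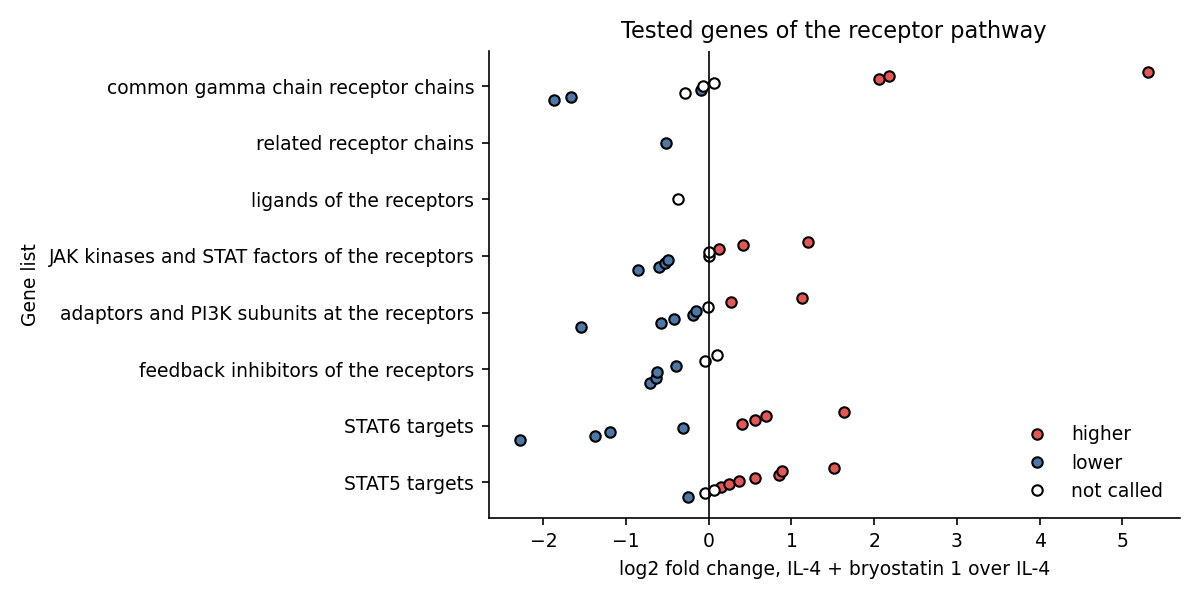
Log2 fold change of each tested gene of the receptor pathway, IL-4 + bryostatin 1 over IL-4, 1 row of points per list. The called feedback inhibitors lie below 0, STAT5 targets mostly above 0, and STAT6 targets on both sides.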

How the data were processed

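RNA in 6 samples was measured by paired-end sequencing. Per the methods of the authors, cutadapt and sickle served for trimming, Hisat2 for mapping, Samtools for sorting and featureCounts for counting. Versions, genome build, annotation and strand setting were not given in the sources used here. Values in the deposited table are unscaled counts for 139023 transcript rows. Other deposited columns hold the authors' own comparison (DEGES scaling and edgeR) and were not used. Because no source used here states how reads shared by rows were treated, the row with the highest mean over the 6 samples stood for each gene, except in the levels per kb, which used the counts of a curated row. For Il2rb, Il7r, Il9r and Il15ra that row is a predicted or non-coding model, and the highest curated row was an alternative chosen after seeing the data.

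Libraries were scaled by DEGES, rewritten with TMM and an exact test (false discovery rate 0.1, floor 5%, 3 rounds). Genes were kept by filterByExpr (minimum count 10, total 15) and tested in edgeR 4.0.16 (R 4.3.3; quasi-likelihood F test, no covariate), with Benjamini-Hochberg adjustment over 13863 genes and a threshold of 0.05. The SE is the absolute log2 fold change divided by the square root of F. The biological coefficient of variation was 3.88%. Samples of a group differed by more than sampling noise (chi-square per gene 2.31 to 4.87), so none was a copy. DESeq2 1.42.0 was an alternative. The procedure was run on simulated data in which far fewer genes changed than the 58.1% called here. That run does not show how the scaling behaves when so many genes change. Tables, exact tests and figures used Python 3.11.15, pandas 2.3.3, numpy 2.4.6, scipy 1.17.1 and matplotlib 3.10.9.

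The receptor genes and all lists were chosen with earlier results of these data known. The text names the 9 chains, up to 4 called genes per list with the largest change, and the 3 genes most like Il2ra and Il4ra. Stat6, Stat5b, Il15, Bcl2, Ighg1, Irf4, Batf, Fcer2a, the uncalled or untested list members and the marker genes named beside them were chosen after their values were seen. A gene that the naming rule takes is not reported here. Promoters are from RefSeq on GRCm38.p6, and lengths and exon overlaps from GENCODE M21, which may not be the annotation behind the counts.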

Additional observations from a re-analysis of the deposited data

How the results depend on the processing

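Over 16 alternatives (scaling, DESeq2, filter, rows of a gene, replicate block, each sample left out), the log2 fold change was 5.16 to 5.48 for Il2ra, 2.04 to 2.30 for Il2rb, 1.99 to 2.13 for Il7r, -1.72 to -1.62 for Il4ra and -1.96 to -1.80 for Il9r, and these 5 calls held in each. Il2rg lay between -0.13 and -0.07 and lost its call in 7. Il15ra, between -0.39 and -0.15, and Il21r, between 0.03 and 0.10, gained a call in 1 each. Il13ra1 lay between -0.20 and 0.01 and was called in none. Leaving out each sample in turn gave 3759 to 3998 higher and 3517 to 3871 lower genes, with 3 chains higher and 2 to 3 lower. Requiring a log2 fold change of 1 beside the adjusted p left 841 genes higher and 622 lower, by construction. Replicate numbers were not taken to pair the samples, since samples with the same number had deviations with correlations of 0.145, 0.052 and 0.019, and the deviations of IL-4 replicate 3 were nearest to those of bryostatin 1 replicate 2 (0.041). A replicate block in the fit gave 4273 higher and 4020 lower genes. Depth limits Il2rb, Il7r and Il13ra1, with 15 to 57 counts in the IL-4 samples.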

Other observations

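Genes whose levels over the 6 samples were most like those of Il2ra and Il4ra were sought among 9520 genes whose mean reached 5 CPM, by the Euclidean distance of centred log2(CPM + 0.1). As the samples form 2 groups, likeness mostly means a change of like size. Nearest to Il2ra were Shoc1 (distance 0.653), which went from 0.627 ± 0.0983 to 21.9 ± 1.18 CPM with bryostatin 1, the beta globin gene Hbb-bt (0.941), at 0.790 ± 0.477 and 27.0 ± 3.68 CPM, and Klhl23 (1.08), at 1.43 ± 0.176 and 36.4 ± 2.04 CPM (SD, n = 3). Shoc1, Hbb-bt and Klhl23 reached a mean of 5 CPM only through the bryostatin 1 samples, so their distances rest on low levels in the IL-4 samples. Hbb-bt has close copies and its counts are uncertain. Nearest to Il4ra were Pkib (0.101), which encodes an inhibitor of protein kinase A, at 58.2 ± 3.22 and 18.2 ± 0.471 CPM, Bcar3 (0.104), at 237 ± 12.4 and 74.2 ± 0.245 CPM, and Dusp10 (0.115), a MAP kinase phosphatase gene, at 102 ± 3.20 and 33.3 ± 1.11 CPM (SD, n = 3).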
